A study of Mus musculus with 16 samples.

Results

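The SLC25 family is the family of mitochondrial carriers, and its genes were followed here in mouse quadriceps. All gene symbols made of Slc25a and a number were taken from the deposited expression table except Slc25a20, which gave 46 members of 23970 symbols (47 symbols matched before the exception). Of these, 36 reached a mean level of 0.5 FPKM across the 16 libraries, the minimum for a test, and the other 10 did not. FPKM counts sequenced fragments relative to the length of the transcript and to the mapped total of the library. It is a level per length, so levels of different genes can be set side by side.

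Most carriers of this family sit in the inner membrane of mitochondria, which is otherwise closed to most small molecules. Each one exchanges or co-transports a particular set of solutes, such as ADP and ATP, phosphate, citrate, glutamate, nucleotides, cofactors or iron. In skeletal muscle the adenine nucleotide and phosphate carriers feed ATP synthase and return ATP to the sarcomeres, and the malate-aspartate carriers bring reducing equivalents from glycolysis into the matrix.

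The study sequenced polyA RNA of quadriceps from male C57BL/6NTac mice aged 16 weeks, in 4 groups with 4 libraries each. For 10 weeks the mice had eaten a control diet (CON, 10% kcal from fat) or a diet rich in fat (HFD, with 60% of its kcal as fat). Muscle was taken from mice that had not run (CON-pre and HFD-pre) or from other mice 3 h after 1 treadmill run to exhaustion (CON-post and HFD-post). By the study's methods, the pre groups shared the acclimatization to the treadmill and the fasting period of the exercised groups. No group carried a transgene or a deletion. Between the run and sampling the mice had water but were not fed. The methods do not say whether the shared fasting period includes these hours. If it does not, the run and a longer fast cannot be told apart in comparisons of post with pre. The question here is which carriers differed between the diets, which differed after the run, and whether the response to the run differed between the diets.

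Of the 36 members tested, 4 passed the test in some comparison, where 4.72% of the 11256 genes tested passed in at least 1 of the 7 comparisons made. Slc25a34, a carrier with no assigned substrate, was higher on HFD and higher after the run. Slc25a1, the citrate carrier, was lower on HFD. Slc25a22, a glutamate carrier, and Slc25a33, a pyrimidine nucleotide carrier, were higher after the run. No member had an exercise response that differed between the diets by the interaction test.

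FPKM summed to between 283570 and 329280 in a library, and the depth relative to the first CON-pre library, read from genes of low value, was between 0.705 and 1.12 (median 0.966). The table holds no read numbers and the study's methods give 1 approximate read number for all samples, so differences in depth between libraries are known only in this relative form. Myh4, the myosin of fast glycolytic fibres, stood at 6821 to 9499 FPKM in every library. None of the 9 slow-fibre, 10 fast-fibre, 9 macrophage or 6 blood markers tested was called in any comparison below. The summed FPKM of the 9 slow-fibre markers was very uneven between libraries of one group, with 220 to 737 in CON-pre, 208 to 535 in HFD-pre, 200 to 733 in CON-post and 203 to 780 in HFD-post. In HFD-pre 8 of these 9 were lower than in CON-pre (median -0.50 on the log2 scale), and after the run over both diets 9 of 9 were higher (median 0.16), none of them at an unadjusted p under 0.05. The summed FPKM of the 10 fast-fibre markers was 69074 to 76774 in CON-pre, above all libraries of HFD-pre (60913 to 68467), CON-post (63081 to 68464) and HFD-post (52800 to 67589). Over both exercise states 8 of these 10 were lower on HFD (median -0.15). Of the 10, 6 were lower at an unadjusted p under 0.05, where 10.4% of all genes passed. At rest 3 of 8 lower ones passed at that level, where 8.25% of all genes did. In CON-post 7 of 10 were lower than in CON-pre (median -0.06), 3 at an unadjusted p under 0.05, where 11.1% of all genes passed. Of the 9 macrophage markers, 8 were lower on HFD at rest (median -0.29) and 9 over both exercise states (median -0.23), none at an unadjusted p under 0.05, with summed FPKM of 91.5 to 158 in CON-pre and 84.8 to 109 in HFD-pre. With a slow-fibre score as a covariate, the calls of Slc25a34, Slc25a1, Slc25a22 and Slc25a33 described below were all kept, with log2 fold changes over pooled groups of 0.82 for Slc25a34 and -0.95 for Slc25a1 on HFD, and of 0.55 for Slc25a34, 0.47 for Slc25a22 and 0.53 for Slc25a33 after the run. The part of the fast-fibre and macrophage markers in those calls was not tested. Since these are bulk samples, fewer cells of a type and less RNA per cell cannot be told apart. The labels number the libraries of a group but do not name the mice, so p-values measure the spread between these libraries.

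Motifs for the receptors and factors under study in exercised muscle were searched in the promoters of members. Sequences are shown for 3 of the 4 members that passed the test in some comparison, chosen because a motif was found in them. RefSeq (GRCm38.p6) gave a sequence of 250 bases before to 50 after a transcript start for 35 of the 46 members, 45 promoters in all. Each sequence is printed 5′ to 3′ on the strand of the gene, in lower case, with the motifs found in capitals. Slc25a34 lies on the minus strand of chromosome 4 (141618819 to 141623891) and its promoter is chr4:141623785-141624084, Slc25a33 also lies on the minus strand of chromosome 4 (149744036 to 149774267) with its promoter at chr4:149774218-149774517, and Slc25a1 lies on the minus strand of chromosome 16 (17925211 to 17928219) with its promoter at chr16:17928170-17928469.
Slc25a34: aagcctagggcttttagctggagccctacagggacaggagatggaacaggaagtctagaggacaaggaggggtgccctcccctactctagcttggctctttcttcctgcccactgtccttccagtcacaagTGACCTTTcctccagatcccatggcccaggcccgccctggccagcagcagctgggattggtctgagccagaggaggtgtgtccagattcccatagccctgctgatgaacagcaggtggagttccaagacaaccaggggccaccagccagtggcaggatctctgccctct
Slc25a33: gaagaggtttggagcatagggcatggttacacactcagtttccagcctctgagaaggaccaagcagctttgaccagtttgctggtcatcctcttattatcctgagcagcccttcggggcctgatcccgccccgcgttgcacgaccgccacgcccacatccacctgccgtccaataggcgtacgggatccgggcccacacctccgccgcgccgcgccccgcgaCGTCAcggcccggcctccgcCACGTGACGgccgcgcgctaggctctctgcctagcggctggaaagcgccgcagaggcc
Slc25a1: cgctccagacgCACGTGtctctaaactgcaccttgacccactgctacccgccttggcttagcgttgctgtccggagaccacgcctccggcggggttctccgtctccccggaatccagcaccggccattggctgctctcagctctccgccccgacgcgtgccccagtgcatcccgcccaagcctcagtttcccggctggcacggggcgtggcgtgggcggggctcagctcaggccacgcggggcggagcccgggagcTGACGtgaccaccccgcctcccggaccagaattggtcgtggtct
In Slc25a34 the capitals mark AAAGGTCA, the letters that a single NR4A receptor binds, on the opposite strand 119 bases before the start. NR4A receptors are orphan nuclear receptors. In Slc25a33 they mark TGACG, the core of the cAMP response element (CRE), 28 bases before the start on the opposite strand and again 4 bases before it, and the E-box CACGTG 8 bases before the start, which overlaps the second core. In Slc25a1 they mark CACGTG 239 bases before the start and TGACG at position 6 counted from the start base as 0.

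The motifs searched, on both strands, were the full CRE (TGACGTCA), its core TGACG, the NR4A site AAAGGTCA, the estrogen-related receptor site TNAAGGTCA, a direct repeat of AGGTCA with 1 base between the copies (the form PPAR receptors bind) and the E-box CACGTG. A full CRE also counts as a core. Among the 35 members with a promoter, the full CRE was found in 2 (Slc25a25 and Slc25a36), the core in 12, the NR4A site in 1 and the E-box in 7. Neither the estrogen-related receptor site nor the direct repeat was found in a member. Counted per promoter, the full CRE was in 2 of the 45 promoters of members (4.44%), the core in 13 (28.9%), the NR4A site in 1 (2.22%) and the E-box in 8 (17.8%). Of the 10898 promoters of genes that were tested, 3.02% held the full CRE, 31.1% the core, 0.954% the NR4A site, 0.725% the estrogen-related receptor site, 0.0275% the direct repeat and 10.1% the E-box. Of all 32851 promoters of this length, the shares in the same order were 1.79%, 20.8%, 1.51%, 1.28%, 0.0396% and 7.15%. The core was thus about as frequent in the promoters of members as in those of tested genes. None of these motifs was found in the promoters of Slc25a22 (chromosome 7, 141429749 to 141437874, 3 promoters) and Slc25a4 (chromosome 8, 46207168 to 46211062, 1 promoter). A match describes letters only, and binding was not measured here.

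The family was led by very few genes. Slc25a4, the ADP/ATP carrier of heart and skeletal muscle (ANT1), stood at 2006, 1658, 2197 and 2240.1 FPKM in CON-pre, 1870.2, 1767, 1907 and 2257 in HFD-pre, 1976, 2223, 2205 and 1913 in CON-post and 2184, 1958, 1944 and 2071 in HFD-post. It ranked 16 among all symbols by its mean and made up between 75.04 and 78.19% of the FPKM of all members. The ranges of all groups overlapped for this gene, and it was not called in any comparison. Together with Slc25a3 (the phosphate carrier), Slc25a12 and Slc25a11 it made up 91.8 to 93.7% of the members' FPKM. The 46 members together took 0.715 to 1.02% of the FPKM of a library.

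**Figure D1:**
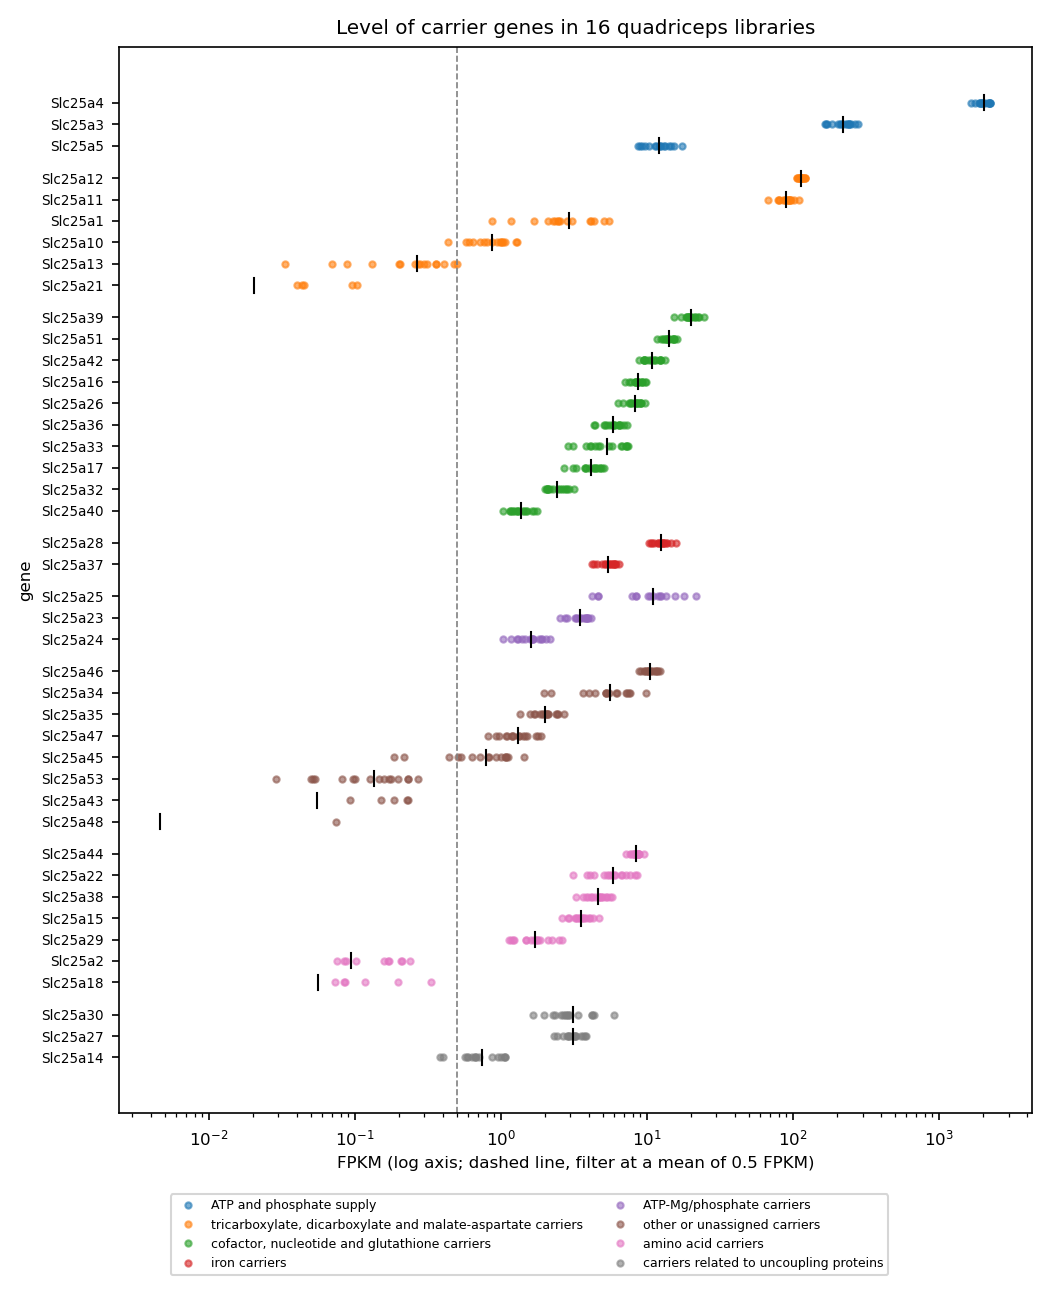
Level of carrier genes that were above 0 in some library (1 not drawn), in FPKM on a log axis, with 1 point per library above 0, the mean over 16 libraries as a black bar, colours by role and a dashed line at the filter of 0.5 FPKM. Slc25a4 stands alone with a mean of 2023 FPKM, Slc25a3, Slc25a12 and Slc25a11 follow with means of 221, 114 and 90.1 FPKM, and 22 members have a mean between 1 and 10 FPKM.

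By mean level, 4 members were above 50 FPKM, 7 were between 10 and 50, 22 between 1 and 10 and 3 between 0.5 and 1. Of the 10 members that were not tested, 7 had a mean above 0: Slc25a13 (0.0332 to 0.504 FPKM), Slc25a53 (0.0289 to 0.270), Slc25a2 (0 to 0.239), Slc25a18 (0 to 0.332), Slc25a43 (0 to 0.231), Slc25a21 (0 to 0.103) and Slc25a48 (0 to 0.0745). The remaining 3, Slc25a31, Slc25a41 and Slc25a54, were listed at 0 in all 16 libraries. Slc25a31 encodes the ADP/ATP carrier of the germ line, and Slc25a18 and Slc25a13 encode the second glutamate carrier and citrin, which are known from other tissues.

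Shares were computed for chosen subfamilies of paralogs, and in several of them 1 gene carried nearly all of the signal. Slc25a4 made up 99.2 to 99.5% of the ADP/ATP carriers, ahead of Slc25a5 (8.73 to 17.4 FPKM). Slc25a12 (aralar) made up 99.55 to 99.97% of the aspartate-glutamate carriers, ahead of citrin. Slc25a22 made up 92.5 to 100% of the glutamate carriers and Slc25a39 made up 91.4 to 94.9% of the glutathione carriers, ahead of Slc25a40. The division was less one-sided for the mitoferrins, where Slc25a28 made up 65.3 to 74.9%, and for the ATP-Mg/phosphate carriers, where Slc25a25 made up 46.9 to 80.6%. The pyrimidine nucleotide carriers Slc25a33 and Slc25a36 had close means over the 16 libraries (5.36 and 5.87 FPKM). The means of the related Slc25a34 and Slc25a35 were 5.59 and 2.02 FPKM. Slc25a4 and Slc25a5, like other close paralogs, share stretches of sequence, and how the counting divided such reads is not stated.

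The first comparison was the diet in resting muscle. HFD-pre against CON-pre gave 1 called member of 36 (limma, adjusted p under 0.05), which was higher, where 0.346% of the 11256 genes tested were called. At an unadjusted p under 0.05 there were 2 higher members and 1 lower one, a share close to the 8.25% of all genes. The ranges of the groups did not overlap for 3 members (2 higher and 1 lower), where 5.62% of all genes had ranges apart. The median log2 fold change of the members was -0.01 and that of all genes was -0.03.

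After the run the diets were compared again. HFD-post against CON-post gave 0 called members, where 0.151% of all genes were called. At an unadjusted p under 0.05 there were 3 higher members and 1 lower one, where 6.29% of all genes passed, and 1 member had ranges apart, where 3.16% of all genes did. Over both exercise states, the diet comparison (the mean of the resting and the post-run difference) gave 1 higher and 1 lower member, where 0.959% of all genes were called, and 3 members passed at an unadjusted p under 0.05, where 10.4% of all genes did. This comparison uses all 16 libraries and shares them with the others, so it is not further evidence for the separate ones.

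For the run on the control diet, CON-post against CON-pre gave 2 called members, both higher, where 1.11% of all genes were called. At an unadjusted p under 0.05 there were 3 higher members and 1 lower one, where 11.1% of all genes passed, and 4 members had ranges apart (2 higher and 2 lower), where 5.82% of all genes did. On the high-fat diet, HFD-post against HFD-pre gave 0 called members, where 0.542% of all genes were called. There, 1 higher member and 2 lower ones had an unadjusted p under 0.05, where 11.7% of all genes did, and 2 members had ranges apart (1 higher and 1 lower), where 6.81% of all genes did. Over both diets, 3 members were called after the run, all higher, where 3.86% of all genes were called, and 6 higher and 4 lower members had an unadjusted p under 0.05, where 18.5% of all genes did.

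The members' medians stayed close to those of all genes in the exercise comparisons too. The median log2 fold change of the 36 members was -0.03 on CON, 0.05 on HFD and 0.02 over both diets, beside -0.01, 0.04 and 0.01 for all genes. With upper-quartile scaling, median-of-ratios scaling or quantile normalization, the calls over both diets were 3 higher and 1 lower.

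**Figure D2:**
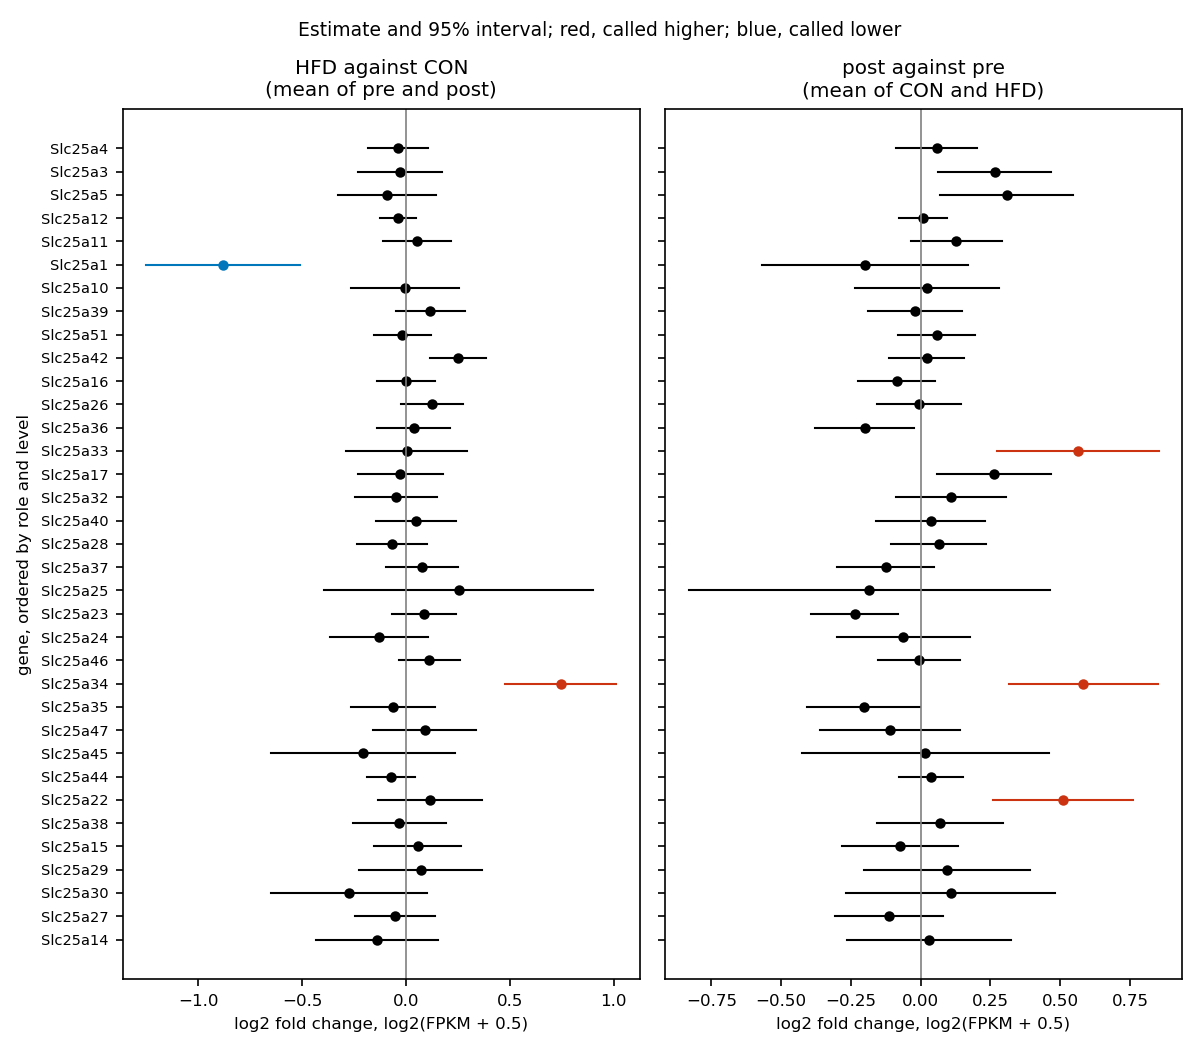
Log2 fold change of the tested carrier genes (1 not drawn) on the log2(FPKM + 0.5) scale, with its interval from the limma fit, for HFD against CON over both exercise states (left) and for post against pre over both diets (right). Most intervals cross 0. Slc25a34 is called in both panels (0.75 and 0.58), Slc25a1 in the left one (-0.88), and Slc25a22 and Slc25a33 in the right one (0.51 and 0.56).

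Slc25a34 was the only member called for diet and for exercise in the fit as described. Its FPKM was 2.22, 1.99, 3.65 and 3.99 in CON-pre, 5.21, 5.22, 6.26 and 7.55 in HFD-pre, 5.28, 5.52, 4.43 and 6.11 in CON-post and 9.81, 7.63, 7.21 and 7.27 in HFD-post. Every HFD-pre and every CON-post library was above every CON-pre library, and every HFD-post library was above every CON-post library. The group means were 2.96 ± 1.00, 6.06 ± 1.11, 5.34 ± 0.696 and 7.98 ± 1.23 FPKM (SD, n = 4) in the same order.

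In resting muscle Slc25a34 was higher on HFD by 0.95 on the log2 scale (limma, standard error 0.18, adjusted p = 0.0257). After the run the difference between the diets was 0.54 (standard error 0.18, adjusted p = 0.490), which was not called although the ranges did not overlap. Over both exercise states Slc25a34 was higher on HFD by 0.75 (standard error 0.13, adjusted p = 0.00542). The exact permutation test of Slc25a34 gave p = 0.0286 for each of these diet comparisons at a single exercise state, which is the smallest p that 4 libraries against 4 allow and did not pass after adjustment over the 72 tests (adjusted exact p = 0.187). Permuting within exercise state gave an exact p of 0.000408, also the smallest possible, with an adjusted exact p of 0.0294. This adjustment covers the 72 tests but not the choice of members, some of which were taken because limma called them on the same libraries.

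The resting call of Slc25a34 rested on several single libraries. Its adjusted p in HFD-pre against CON-pre was 0.123 and 0.102 when CON-pre replicate 1 or 2 was left out, and 0.0503, 0.0801 and 0.0939 when HFD-pre replicate 1, 3 or 4 was, with log2 fold changes between 0.81 and 1.10 over all alternatives. It was 0.119 when only these 2 groups were fitted and 0.0569 with no filter on low values. The call over both exercise states was kept in all 28 alternative fits, with an adjusted p between 0.00125 and 0.0161.

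For the run, Slc25a34 rose on the control diet by 0.79 on the log2 scale (standard error 0.18, adjusted p = 0.0397, exact permutation p = 0.0286, adjusted exact p = 0.187). On the high-fat diet the difference was 0.37 (standard error 0.18, adjusted p = 0.430), and here the ranges of HFD-pre and HFD-post overlapped. Over both diets it rose by 0.58 (standard error 0.13, adjusted p = 0.0157), with an exact permutation p of 0.00122 and an adjusted exact p of 0.0294. The responses on the diets were not shown to differ, since the interaction was -0.42 (standard error 0.25, adjusted p = 1.00, unadjusted p = 0.116).

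The call of Slc25a34 in CON-post against CON-pre was the less stable of its exercise results. It was lost in 13 of 29 alternative fits, with an adjusted p of 0.162 without CON-pre replicate 1, 0.126 without CON-pre replicate 2, 0.0928, 0.0831 and 0.107 without CON-post replicate 1, 2 or 4, 0.0518 and 0.0564 without HFD-pre replicate 1 or 3, and 0.0557, 0.0525 and 0.0543 without HFD-post replicate 2, 3 or 4. With only the 2 groups in the fit it was 0.175, with no filter it was 0.0887 and with an adipocyte score as a covariate it was 0.0535, where the log2 fold change was 0.80. The call over both diets was kept in all 28 alternatives, with an adjusted p between 0.00469 and 0.0419. The HFD-post library with 9.81 FPKM stood apart from the other 3 libraries of its group.

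**Figure D3:**
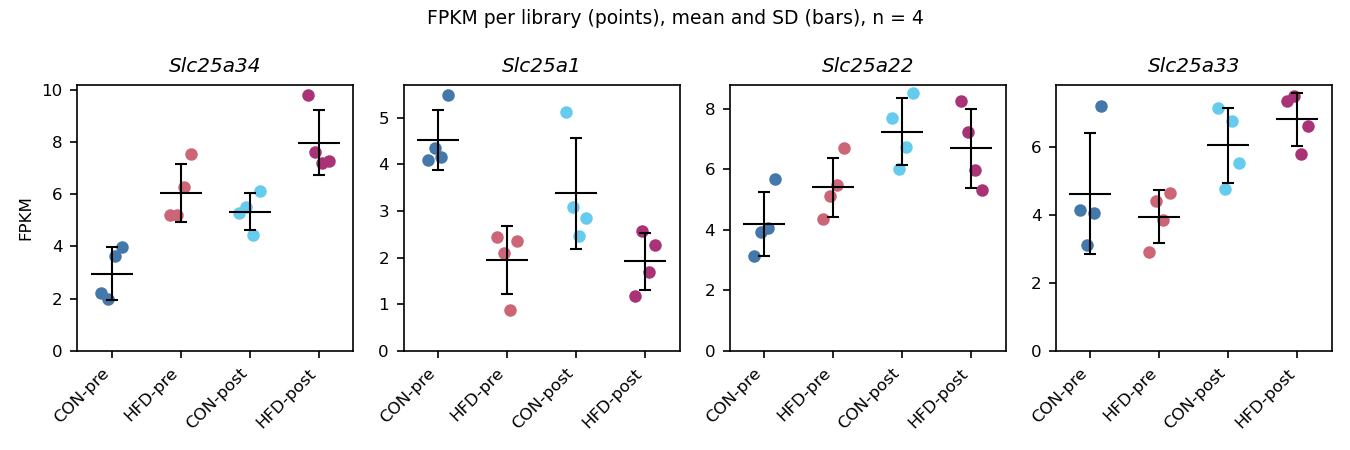
FPKM of Slc25a34, Slc25a1, Slc25a22 and Slc25a33 in each library (points, 4 per group), with the group mean and SD (bars) and an axis that starts at 0. For Slc25a34 the 4 CON-pre libraries lie at 1.99 to 3.99 FPKM, under all other libraries, and for Slc25a1 the 4 CON-pre libraries lie at 4.09 to 5.48 FPKM, above all 8 HFD libraries.

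Slc25a1 exports citrate from the matrix, where it serves as the source of cytosolic acetyl-CoA for fatty acid synthesis. Its FPKM was 4.09, 4.36, 4.17 and 5.48 in CON-pre, 2.45, 2.11, 0.876 and 2.35 in HFD-pre, 5.12, 3.08, 2.46 and 2.84 in CON-post and 1.18, 2.56, 1.69 and 2.26 in HFD-post. All HFD-pre libraries were below all CON-pre libraries, while after the run the highest HFD-post library (2.56) was above the lowest CON-post library (2.46). The group means were 4.53 ± 0.649, 1.95 ± 0.728, 3.38 ± 1.19 and 1.92 ± 0.614 FPKM (SD, n = 4).

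Over both exercise states Slc25a1 was lower on HFD, at -0.88 on the log2 scale (limma, standard error 0.17, adjusted p = 0.0190). This call was kept in all 28 alternatives, with an adjusted p between 0.0132 and 0.0488. Permuting within exercise state gave an exact p of 0.000816 and an adjusted exact p of 0.0294. Taken separately, neither diet difference was called, with -1.09 at rest (standard error 0.25, adjusted p = 0.0849, exact permutation p = 0.0286, adjusted exact p = 0.187) and -0.67 after the run (standard error 0.25, adjusted p = 0.583, exact permutation p = 0.0571, adjusted exact p = 0.343). With array weights the resting difference passed, with an adjusted p of 0.0382. The interaction of diet and exercise was 0.42 (standard error 0.35, adjusted p = 1.00).

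Adipocyte markers differed between the diets as well, and fat cells also express Slc25a1. Of 13 adipocyte markers tested over both exercise states, Lep was higher on HFD (2.54 on the log2 scale), Cfd (-1.77) and Adrb3 (-0.73) were lower, and the other 10 were not called, with a median over the list of 0.14. Their summed FPKM was 1011 to 1255 in CON-pre, 1039 to 1173 in HFD-pre, 991 to 1340 in CON-post and 993 to 1556 in HFD-post. Of these markers, Car3, Slc2a4 and Lpl are also expressed by muscle fibres. Adipoq, which defines fat cells, was above 0 in every library (10.6 to 45.4 FPKM). With the adipocyte score as a covariate, Slc25a1 and Slc25a34 were again called over both exercise states. This score averages the markers, which moved in opposite directions with diet, so it does not measure how much fat a library held. The part of fat cells in these calls was not tested.

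Slc25a22 takes glutamate into mitochondria together with a proton. Its FPKM was 3.14, 3.91, 4.07 and 5.68 in CON-pre, 4.35, 5.12, 5.47 and 6.69 in HFD-pre, 7.70, 6.02, 6.74 and 8.53 in CON-post and 8.26, 7.23, 5.98 and 5.33 in HFD-post. On the control diet the ranges before and after the run did not overlap, while on the high-fat diet they did. The group means were 4.20 ± 1.07, 5.41 ± 0.977, 7.25 ± 1.10 and 6.70 ± 1.31 FPKM (SD, n = 4).

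In CON-post Slc25a22 was higher than in CON-pre by 0.74 on the log2 scale (limma, standard error 0.17, adjusted p = 0.0403, exact permutation p = 0.0286, adjusted exact p = 0.187). In HFD-post against HFD-pre the difference was 0.28 (standard error 0.17, adjusted p = 0.544). The interaction, -0.46 (standard error 0.24, adjusted p = 1.00, unadjusted p = 0.0711), did not show that the responses differed. Over both diets Slc25a22 rose by 0.51 (standard error 0.12, adjusted p = 0.0232), with an exact permutation p of 0.00449 and an adjusted exact p of 0.0764.

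The call of Slc25a22 on the control diet was lost in 16 of 29 alternative fits. The adjusted p was 0.163, 0.111 and 0.0945 without CON-pre replicate 1, 2 or 3, 0.116, 0.0749 and 0.114 without CON-post replicate 1, 3 or 4, 0.0553 and 0.0574 without HFD-pre replicate 2 or 3, and 0.0548 and 0.0531 without HFD-post replicate 2 or 3. It was 0.122 with only the 2 groups in the fit, 0.0895 with no filter, 0.0694 with a replicate block, and 0.0572, 0.0534 and 0.0549 with upper-quartile, median-of-ratios or quantile scaling. Over both diets it was lost without CON-pre replicate 1 (0.0545), HFD-pre replicate 1 (0.0550) or HFD-pre replicate 2 (0.0507).

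Slc25a33 imports pyrimidine nucleotides for the synthesis of mitochondrial DNA and RNA. Its FPKM was 4.15, 3.11, 4.05 and 7.19 in CON-pre, 2.90, 4.40, 3.86 and 4.64 in HFD-pre, 7.15, 4.77, 6.76 and 5.53 in CON-post and 7.35, 7.49, 5.79 and 6.63 in HFD-post. All HFD-post libraries were above all HFD-pre libraries. On the control diet the groups overlapped because of the CON-pre library with 7.19 FPKM, which was above all CON-post libraries. The group means were 4.63 ± 1.77, 3.95 ± 0.771, 6.05 ± 1.10 and 6.81 ± 0.782 FPKM (SD, n = 4).

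Over both diets Slc25a33 rose after the run by 0.56 on the log2 scale (limma, standard error 0.14, adjusted p = 0.0307, exact permutation p = 0.00531, adjusted exact p = 0.0764). Separately, the difference was 0.73 on the high-fat diet (standard error 0.19, adjusted p = 0.134, exact permutation p = 0.0286, adjusted exact p = 0.187) and 0.40 on the control diet (standard error 0.19, adjusted p = 0.470), and neither was called. Without CON-pre replicate 4 the difference on the high-fat diet was called (adjusted p = 0.0357). The interaction was 0.33 (standard error 0.27, adjusted p = 1.00).

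The call of Slc25a33 over both diets was lost in 11 of 28 alternative fits. The adjusted p was 0.0673, 0.0611 and 0.0598 without CON-pre replicate 1, 2 or 3, 0.0694 and 0.0524 without HFD-pre replicate 1 or 3, 0.0621 and 0.0608 without CON-post replicate 1 or 3, and 0.0556 and 0.0644 without HFD-post replicate 1 or 2. It was 0.0637 with no filter on low values and 0.0798 with the adipocyte score as a covariate, where the log2 fold change was 0.53. Among the adipocyte markers, Lpl was called after the run over both diets (0.37 on the log2 scale, adjusted p = 0.0307), and 11 of 13 were higher.

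The interaction asked of every member whether its response to the run depended on the diet. Among the 36 members 0 were called by limma, as among all genes (0%), and 1 had an unadjusted p under 0.05, where 3.16% of all genes did. This member was Slc25a10, the dicarboxylate carrier, with an interaction of 0.54 (standard error 0.24, unadjusted p = 0.0424, adjusted p = 1.00) and a level of 0.434 to 1.28 FPKM. The precision of a single interaction was low, with a standard error of 0.24 to 0.35 for the 4 called members.

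**Figure D4:**
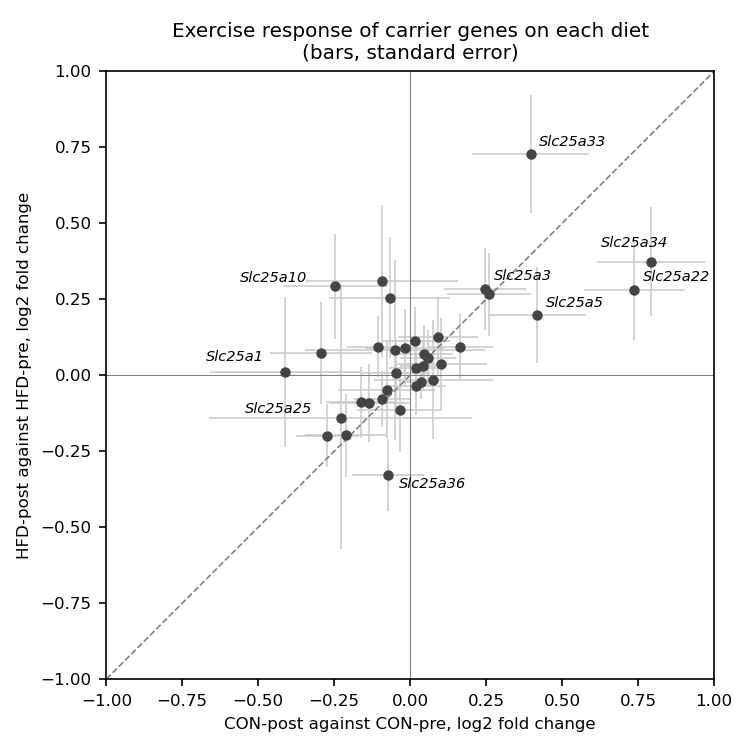
Log2 fold change of the tested carrier genes (1 not drawn) after the run on HFD (vertical axis) against that on CON (horizontal axis), with standard errors as bars and the line of equal response dashed. Slc25a34 (0.79 on CON and 0.37 on HFD) and Slc25a22 (0.74 and 0.28) lie below the line and Slc25a33 (0.40 and 0.73) above it, and none of these distances from the line was called as an interaction.

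By role, the carriers that supply ATP synthase showed no called member among 3 tested. Slc25a3, the phosphate carrier, stood at 205 ± 34.3 FPKM in CON-pre, 198 ± 35.9 in HFD-pre, 241 ± 27.2 in CON-post and 239 ± 27.2 in HFD-post (SD, n = 4). Over both diets its log2 fold change after the run was 0.27 (adjusted p = 0.145), and that of Slc25a5, the broadly expressed ADP/ATP carrier, was 0.31 (adjusted p = 0.148). On the control diet alone Slc25a5 was at 0.42 (adjusted p = 0.299). Both genes passed at an unadjusted p only, and their ranges before and after the run overlapped.

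Of the malate-aspartate and dicarboxylate carriers, 4 were tested and only Slc25a1 was called. Slc25a12, the aspartate-glutamate carrier of the malate-aspartate shuttle, had 122, 113, 112 and 111 FPKM in CON-pre, 122, 116, 109 and 107 in HFD-pre, 122, 114, 118 and 115 in CON-post and 118, 106, 112 and 111 in HFD-post. Its highest library was 1.15-fold its lowest, and its SD within groups was 0.06 on the log2 scale, lower than that of all but 0.702% of the genes tested. Its partner Slc25a11, the oxoglutarate carrier, ranged from 67.5 to 110 FPKM and was not called.

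Among 3 ATP-Mg/phosphate carriers tested, which adjust the adenine nucleotide pool of the matrix under the control of calcium, 0 were called by limma in any comparison. Slc25a25 had 4.67, 10.5, 12.4 and 15.5 FPKM in CON-pre, 7.96, 11.9, 21.8 and 8.42 in HFD-pre, 13.5, 4.62, 4.21 and 18.0 in CON-post and 10.2, 11.1, 8.39 and 12.5 in HFD-post. The CON-post libraries alone ran from 4.21 to 18.0 FPKM, and the highest of all 16 libraries was 5.19-fold the lowest. Its SD within groups was 0.70 on the log2 scale, above that of 98.6% of all genes tested, while the median SD of the 36 members was 0.19 and that of all genes was 0.18. Slc25a23 was at -0.27 on the log2 scale in CON-post against CON-pre (adjusted p = 0.303) with ranges that did not overlap (2.75 to 3.26 FPKM after 3.46 to 3.87), and at -0.24 over both diets (adjusted p = 0.0891). Slc25a24 stood at 1.04 to 2.17 FPKM.

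**Figure D5:**
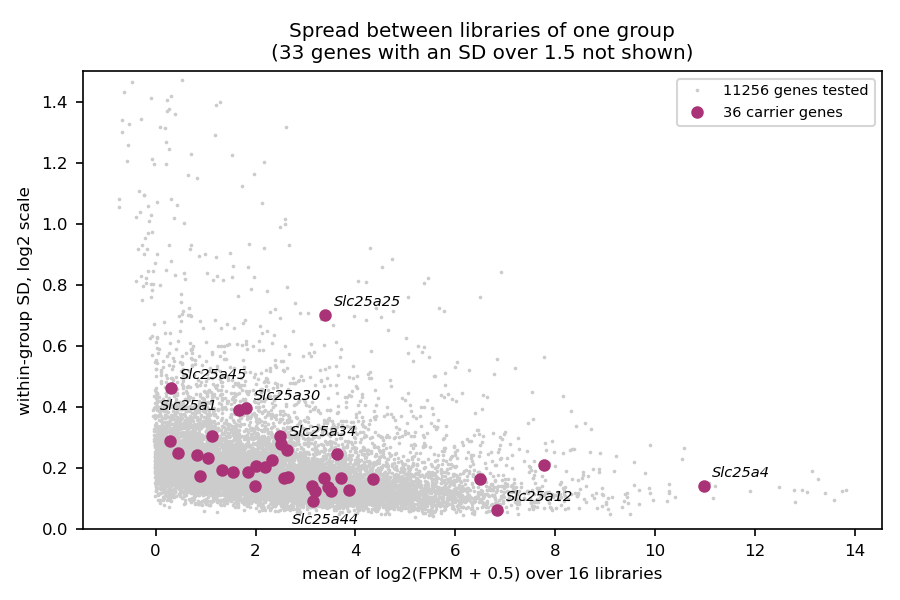
SD within groups (vertical axis, log2 scale) against the mean of log2(FPKM + 0.5) over the 16 libraries (horizontal axis) for the 11256 genes tested (grey) and the 36 carrier genes (purple), with 33 genes above the axis not shown. Slc25a25 has the highest SD of the carriers (0.70), followed by Slc25a45 (0.46), Slc25a30 (0.40) and Slc25a1 (0.39), and Slc25a12 the lowest (0.06).

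Of 5 amino acid carriers tested, Slc25a22 alone was called, both on the control diet and over both diets. Slc25a44, which carries branched-chain amino acids, was the most abundant and among the steadiest, with 8.06, 8.85, 8.34 and 8.65 FPKM in CON-pre, 8.69, 7.68, 8.83 and 7.16 in HFD-pre, 8.65, 8.67, 8.11 and 9.58 in CON-post and 7.85, 8.77, 8.13 and 8.27 in HFD-post. Its groups overlapped throughout. The glycine carrier Slc25a38 (3.28 to 5.77 FPKM), the ornithine carrier Slc25a15 (2.64 to 4.73) and the basic amino acid carrier Slc25a29 (1.13 to 2.63) were not called.

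All 11 carriers of cofactors, nucleotides and glutathione were tested, and 1 of them, Slc25a33, was called, over both diets. Slc25a39, a glutathione carrier, led the group with 19.4, 18.9, 22.5 and 17.0 FPKM in CON-pre, 24.7, 19.5, 18.6 and 20.3 in HFD-pre, 15.3, 21.5, 18.8 and 19.8 in CON-post and 19.9, 22.8, 19.2 and 21.2 in HFD-post. Next came Slc25a51, the NAD carrier, at 11.8 to 16.0 FPKM. Neither was called.

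The coenzyme A carrier Slc25a42 came closest to a further diet call. It had 9.61, 9.87, 10.3 and 9.56 FPKM in CON-pre and 12.5, 12.3, 11.2 and 11.3 in HFD-pre, so the ranges did not overlap at rest. After the run it had 8.89, 9.55, 9.56 and 12.2 FPKM in CON-post and 11.6, 12.3, 10.7 and 13.3 in HFD-post, where the CON-post library with 12.2 FPKM overlapped the HFD libraries. Its log2 fold change on HFD was 0.25 both at rest (adjusted p = 0.439) and after the run (adjusted p = 0.557), and 0.25 over both states (standard error 0.06, adjusted p = 0.0894). Without CON-post replicate 4 it was 0.30 and was called (adjusted p = 0.0122).

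Other members of this role passed at an unadjusted p only. After the run over both diets, Slc25a36, the second pyrimidine nucleotide carrier, was at -0.20 on the log2 scale (adjusted p = 0.209), and Slc25a17, a carrier of peroxisomes, at 0.26 (adjusted p = 0.153). On the high-fat diet Slc25a36 was at -0.33 (adjusted p = 0.277), with 4.36 to 5.89 FPKM after the run and 6.00 to 7.29 before it, and these ranges did not overlap. Slc25a26, the carrier of S-adenosylmethionine, was at 0.22 in HFD-post against CON-post (adjusted p = 0.754). Slc25a16 (7.14 to 9.85 FPKM), the folate and FAD carrier Slc25a32 (2.01 to 3.17) and Slc25a40 (1.03 to 1.78) had an unadjusted p above 0.05 in every comparison.

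Neither mitoferrin, the carriers that bring iron to heme and iron-sulfur cluster synthesis, was called. Slc25a28 (mitoferrin-2) had 11.9, 12.5, 12.9 and 13.7 FPKM in CON-pre, 13.6, 12.0, 10.4 and 11.1 in HFD-pre, 13.0, 15.8, 10.8 and 12.4 in CON-post and 10.7, 12.8, 13.0 and 14.6 in HFD-post. Slc25a37 (mitoferrin-1) stood lower, at 4.19 to 6.49 FPKM. Blood cells are rich in mitoferrin-1, and the summed FPKM of blood markers was 259.6 to 905 over the libraries. Of the 6 blood markers tested, 5 were lower on HFD at rest (median -0.48 on the log2 scale) and the other one was higher at an unadjusted p under 0.05, while after the run 6 of 6 were higher on HFD (median 0.36), none at that level. Their part in the level of Slc25a37 was not tested.

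The 3 carriers related to uncoupling proteins were not called in any comparison. Slc25a30 had 2.89, 4.19, 2.77 and 4.23 FPKM in CON-pre, 2.95, 2.36, 2.58 and 1.65 in HFD-pre, 2.27, 2.65, 2.88 and 5.94 in CON-post and 4.32, 2.81, 3.40 and 1.98 in HFD-post. A single CON-post library (5.94) set the upper end of its range. Slc25a27 stood at 2.33 to 3.84 FPKM and Slc25a14 at 0.384 to 1.07 FPKM.

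Among the 5 tested members with other or unassigned roles, Slc25a34 alone was called. Slc25a46, a carrier-like protein of the outer membrane with a part in mitochondrial fission and fusion, had 9.52, 10.2, 9.69 and 10.7 FPKM in CON-pre, 11.3, 10.2, 10.5 and 12.4 in HFD-pre, 9.19, 11.6, 9.86 and 10.1 in CON-post and 11.0, 12.0, 11.7 and 8.78 in HFD-post. Slc25a35, a close relative of Slc25a34, was at -0.20 after the run over both diets (adjusted p = 0.267), with a level of 1.35 to 2.72 FPKM, and on the control diet all libraries after the run (1.71 to 2.04) were below all libraries before it (2.06 to 2.47). Without HFD-post replicate 4, its highest library, it was at -0.29 and was called (adjusted p = 0.0345). Slc25a47 (0.816 to 1.90 FPKM) and Slc25a45 (0.185 to 1.44 FPKM) were not called.

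Carriers of the same family that bear other names were read alongside. Ucp3, the uncoupling protein of skeletal muscle, was at 64.7 ± 14.4 FPKM in CON-pre, 85.1 ± 15.1 in HFD-pre, 117 ± 13.8 in CON-post and 103 ± 15.6 in HFD-post (SD, n = 4). It rose after the run on the control diet by 0.87 on the log2 scale (standard error 0.16, adjusted p = 0.00878) and over both diets by 0.58 (standard error 0.11, adjusted p = 0.00867), while its interaction was -0.59 (unadjusted p = 0.0191, adjusted p = 1.00). Ucp2, Mtch1 and Mtch2 were not called, and Ucp1 (0 to 1.44 FPKM) was too low to be tested.

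Other genes that move solutes into mitochondria or build the carriers into the membrane were counted from lists written by hand. Of 22 genes for other solute routes (pyruvate carrier, porins, calcium uniporter, sideroflexins, ABC transporters and carnitine palmitoyltransferases), 2 were called over both exercise states, both higher on HFD: Cpt2 (0.46, adjusted p = 0.000388) and Cpt1b (0.28, adjusted p = 0.00965), which release and form acylcarnitines. This was 9.09% of the list, where 0.959% of all genes were called. Cpt2 was also called in each diet comparison by itself (0.40 at rest, adjusted p = 0.0392, and 0.52 after the run, adjusted p = 0.0103). After the run, 1 of the 22 (4.55%) was called over both diets, Cpt1a (0.34, adjusted p = 0.0466), a share close to the 3.86% of all genes. Of 11 genes of the carrier import machinery (TIM and TOM proteins), Timm10b alone was called, after the run over both diets (0.48, adjusted p = 0.0250), where 3.86% of all genes were called.

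The respiratory chain was read as another set of mitochondrial genes. Of 79 nuclear-encoded subunits tested, 0 were called by limma in any of the 7 comparisons, and their median log2 fold change was 0.02 at rest on HFD and 0.06 after the run on either diet. At an unadjusted p under 0.05 the count was between 0 and 7, the highest being after the run over both diets, where 8.86% of the subunits and 18.5% of all genes passed.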

How the data were processed

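Quadriceps polyA RNA of 16 libraries was analysed from the table the authors deposited, whose values are FPKM that the authors estimated with Cufflinks after alignment with TopHat, following stranded library preparation, adapter trimming and a quality check with FastQC. The labels and methods name mm9 as the build, but the loci the study prints overlapped the RefSeq GRCm38 gene for 5 of 5 members and the mm9 gene for 1, so positions are given in GRCm38. The values are therefore normalized and are no read counts, so no count model was used and no interval of counting error can be given. Of 24487 entries, 27 named as dates (0.0771% of FPKM) were left out and 260 repeated symbols were summed. No sample column was left unused (0).

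The 11256 symbols whose mean reached 0.5 FPKM entered 1 limma fit (limma 3.58.1, R 4.3.3, trend on) of the 4 groups on log2(FPKM + 0.5), a scale that makes changes of low genes look smaller. Genes with p under 0.05 after Benjamini-Hochberg adjustment across all tested genes were called. Single members were also compared with exact two-sided permutation tests (72 tests, adjusted together). These members were those called by limma on the same libraries and the most abundant member of each role. The adjusted exact p-values do not account for that choice and are not further evidence for the calls. A within-group SD was the pooled SD of log2 values. The code was tested on simulated data.

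The members and lists were chosen with earlier results of these data known. Per-library values are given for members called in any of 7 comparisons and for the most abundant member of each role. Slc25a42 is also given in full, a choice made on its values, and members with an unadjusted p under 0.05 are named with their values, apart from 1 member that is not reported here. The versions and settings of TopHat, Cufflinks and FastQC are not given in the sources used here. Alternatives were 15 other settings and the 16 fits that leave out a library. Numbering was checked for pairing: deviations of same-numbered libraries correlated between -0.22 and 0.21, over 0.1 in 5 of 24 pairs, so the numbers were not taken to pair the libraries. Tables were made in Python 3.11.15 (pandas 2.3.3 and numpy 2.4.6, with scipy 1.17.1), and figures with matplotlib 3.10.9.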

Additional observations from a re-analysis of the deposited data

Results flagged for a closer look

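Among the 13 members given library by library, 52 groups of 4 libraries were examined for a library that stood apart from the rest of its group, and 2 such libraries were found. Chance gives about 1 in 20 groups. In HFD-post, replicate 1 had 9.81 FPKM of Slc25a34, while the other libraries of the group had 7.21 to 7.63 FPKM. The gap to the next library was 0.838 of the range of the group, above Dixon's limit for 4 samples. In CON-post, replicate 4 had 5.94 FPKM of Slc25a30, while the others had 2.27 to 2.88 FPKM, with a gap of 0.833 of the range. The direction of the Slc25a34 results did not depend on the HFD-post library, since both of its calls over pooled groups were kept without it.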

How the results depend on the processing

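Of 996 comparisons between a single-member result and an alternative, 938 kept direction and side of the threshold, 50 lost the call, 8 gained one and 0 reversed. In HFD-pre against CON-pre the count of called members (1) was 2 at an adjusted p under 0.1, 2 with array weights, 0 with no filter, 0 with only the groups compared and 3 at an unadjusted p under 0.05, and between 0 and 1 when a library was left out. In CON-post against CON-pre the count (2) was 1 with the adipocyte covariate, 1 with median-of-ratios, upper-quartile or quantile scaling, 0 with no filter, 0 with only the groups compared and 4 at an unadjusted p under 0.05, and between 0 and 2 with a library left out. At an unadjusted p under 0.05, the counts were 3 for HFD-post against HFD-pre, 4 for HFD-post against CON-post and 1 for the interaction, each 0 when adjusted. Leaving out a library gave 0 to 1 for HFD-post against HFD-pre and 0 for the other pair. After the run over both diets (3), the count was 5 at an adjusted p under 0.1 and 10 at an unadjusted one under 0.05, and between 1 and 4 with a library left out (it fell to 1 when the first CON-pre or the first HFD-pre library was left out). For the diet over both exercise states (2) it stayed between 2 and 3. With a replicate block, CON-post against CON-pre had 1 called member, since Slc25a22 was no longer called (adjusted p = 0.0694), and 6 of 16 libraries correlated best with a library of their own number. The causes of these changes were not tested. FPKM carry no read depth, so low members could not be given a counting error.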
